A study of Homo sapiens with 42 samples.

Results

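The 6 small RNA libraries described here hold the miRNAs bound to Argonaute (AGO) proteins in HEK293 cells, a human embryonic kidney line, at 2 levels of confluency. They were chosen by sample title from the 42 libraries of the series: 3 came from subconfluent and 3 from confluent cells, each titled as a biological replicate of wild-type, untreated HEK293 cells grown in DMEM with serum. The AGO1-4 proteins were captured with T6B, and RNA was extracted from the beads. The sample titles name total lysate and the study's results whole cell lysates, while its methods name the cytoplasmic fraction. Whether AGO of the nucleus was part of the input is thus not settled. A replicate number stands for a 3′ adapter, used once in each group. Index primers differed between the groups, because all subconfluent libraries were amplified as 1 pool and all confluent libraries as another, so effects of pool and of confluency cannot be told apart in the IP. The deposited table lists 2657 mature miRNA entries, of which 537 reached 10 counts in at least 3 of the 6 libraries and were tested. These 537 held 99.9% of all counts, while 1208 entries had no count in any of the 6 libraries.

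An AGO protein holds 1 strand of the miRNA duplex, the guide, and finds messenger RNAs through the seed, the short run of bases near the 5′ end of the guide. miRNAs with the same seed form a family with overlapping targets, and the strand from the other arm of the hairpin, the passenger, is usually lost. T6B is a peptide from the AGO partner TNRC6B that binds all human AGO proteins, so its precipitate reports which strands are loaded, whichever paralog holds them. HEK293 cells are known for a large output of the miR-17-92 cluster, a polycistron that MYC activates.

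The mature sequences below, taken from RefSeq (GRCh38.p14), belong to the miRNAs the results turn on. Seeds, bases 2 to 8, are in capitals. The first set holds miRNAs with large changes between the groups.

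miR-210-3p: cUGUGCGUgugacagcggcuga
miR-769-3p: cUGGGAUCuccggggucuugguu
miR-138-5p: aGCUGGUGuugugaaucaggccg
miR-328-3p: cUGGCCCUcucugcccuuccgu
miR-574-5p: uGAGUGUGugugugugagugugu
miR-140-3p: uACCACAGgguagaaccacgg
miR-590-3p: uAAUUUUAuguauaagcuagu

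The next set shows 3 families whose members moved together. Members of the miR-30 family share GUAAACA and those of the miR-181 family ACAUUCA. In the joint family of miR-34 and miR-449 the seed is either GGCAGUG or the same run shifted by a base.

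miR-30a-5p: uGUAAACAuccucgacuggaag
miR-30c-5p: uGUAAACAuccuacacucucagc
miR-30e-5p: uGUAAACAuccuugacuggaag
miR-34a-5p: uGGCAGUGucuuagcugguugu
miR-449a: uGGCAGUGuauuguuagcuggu
miR-34b-5p: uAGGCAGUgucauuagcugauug
miR-449c-5p: uAGGCAGUguauugcuagcggcugu
miR-181a-5p: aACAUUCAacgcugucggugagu
miR-181b-5p: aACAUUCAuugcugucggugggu
miR-181c-5p: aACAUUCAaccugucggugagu
miR-181d-5p: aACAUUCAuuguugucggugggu

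The last set gives guides of the miR-17-92 cluster, which held the largest share of the counts.

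miR-17-5p: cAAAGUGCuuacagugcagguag
miR-20a-5p: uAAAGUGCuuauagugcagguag
miR-19a-3p: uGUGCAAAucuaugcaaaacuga
miR-19b-3p: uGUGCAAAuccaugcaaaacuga
miR-92a-3p: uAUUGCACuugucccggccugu

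Subconfluent libraries held 999718, 910753 and 978132 counts and confluent libraries 993140, 1124959 and 1115929. Replicates within a group differed by more than counting noise, so all 6 were kept as separate samples. Levels are given as counts per 1000000 (CPM) after TMM scaling, and fold changes, confluent over subconfluent, are log2 values from edgeR's quasi-likelihood test with their standard errors (SE), called at an adjusted p under 0.05. All 11 entries fixed as marks of the HEK293 line were detected, and together they made up 468675 to 501022 CPM in subconfluent and 463108 to 495822 CPM in confluent libraries, before TMM scaling. Of the markers of other cell types, liver miR-122-5p stayed at 0 to 3.02 CPM. Summed over its 3 listed miRNAs, muscle reached 80.0 to 111 CPM in subconfluent and 176 to 207 CPM in confluent libraries on the same scale, and both tested members, miR-1-3p and miR-133a-3p, were called higher, a change whose source was not tested. Of the other lists, miR-146a-5p of melanocytes and miR-124-3p of neurons were called higher, while miR-204-5p, miR-129-5p and miR-9-5p of these lists were not called. No tested member was called among those of blood (4 of 6 tested), endothelium (1 of 1) and mesenchyme (3 of 4). With the replicate number as a block in the fit, 1 entry of endothelium, 2 of mesenchyme, 2 of neurons and 1 of blood were called higher. In that fit 1 of blood was called lower. Since lysates are bulk samples, fewer cells carrying a miRNA and less of it per cell cannot be told apart.

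The AGO-bound pool was led by a few miRNAs. The 10 most abundant entries, namely miR-19b-3p, miR-19a-3p, miR-20a-5p, miR-17-5p, miR-18a-5p, miR-92a-3p, miR-16-5p, miR-10a-5p, miR-93-5p and miR-10b-5p, took 53.0% ± 1.93 of the counts (SD, n = 3) in subconfluent and 52.1% ± 1.92 (SD, n = 3) in confluent cells. The shares of the groups overlapped. The log2 ratio of the summed shares was -0.02, and on TMM-scaled CPM it was -0.13. The 6 guides of the miR-17-92 cluster alone, encoded on chromosome 13 in the host transcript MIR17HG, took 44.6% ± 1.83 and 44.3% ± 1.87 (SD, n = 3 each).

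Among these guides none was called. miR-19b-3p, the most abundant entry, stood at 135162, 117223 and 141114 CPM in subconfluent and 134586, 110505 and 136092 CPM in confluent libraries, a log2 fold change of -0.05 ± 0.13 (SE). The values were interleaved. The other 5 guides had log2 fold changes between -0.25, for miR-20a-5p and miR-92a-3p, and -0.07, for miR-19a-3p, with a median over the 6 of -0.09 beside 0.00 over all tested entries. With the replicate number as a block, 5 of the 6 were called lower, all but miR-19b-3p. The blocked fit gave nearly equal fold changes (-0.26 for miR-20a-5p, adjusted p = 8.46e-14) and a smaller spread, which it pooled over all entries. Of the 10 leading entries, only miR-10b-5p, a miRNA of the HOXD cluster, was called in the fit without the block, at -0.39 ± 0.11 (adjusted p = 0.0268), and leaving out subconfluent replicate 1 or 3 or confluent replicate 2 or 3 ended that call. In the blocked fit miR-10b-5p was called lower too, as were miR-16-5p (-0.29), miR-10a-5p (-0.13) and miR-93-5p (-0.09).

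**Figure D1:**
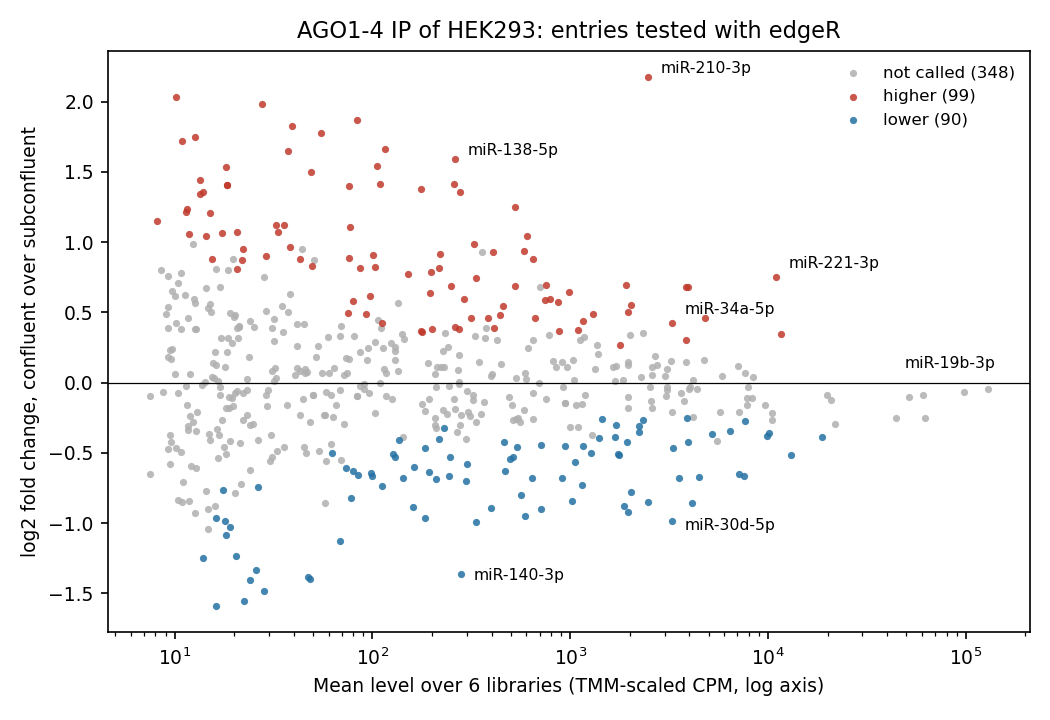
Log2 fold change of each of the 537 tested entries (vertical axis, confluent over subconfluent) against its mean level over the 6 libraries (horizontal log axis, TMM-scaled CPM). The 99 entries called higher and 90 called lower flank a near-flat group of abundant miRNAs at the right, and miR-210-3p stands at the top with 2.17.

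Below the leaders, changes were frequent. Of the 537 entries, 189 were called (35.2%), 99 higher (18.4%) and 90 lower (16.8%) in confluent cells. Rises were larger than falls, with a median log2 fold change of 0.88 among entries called higher and -0.66 among those called lower. A change of at least 2-fold was reached by 38 of the risers and 13 of the fallers, and most of these were scarce, since only 10 and 1 of them had a mean of 100 CPM or more. Calls were also unevenly spread over abundance. Of the 16 entries at 10000 CPM or more, 2 were called higher and 3 lower (31.25%), a share near that of all entries. Between 1000 and 10000 CPM falls prevailed, with 32 of 104 entries lower and 13 higher, and between 100 and 1000 CPM the counts were 42 higher and 32 lower of 163. Under 100 CPM 42 of 254 entries were higher and 23 lower (25.6%), the smallest called share. The libraries of the groups did not overlap for 243 entries (45.3%), 125 of them higher (23.3%) and 118 lower (22.0%). With the replicate block 145 entries were higher and 156 lower (56.1% in all), and all 189 calls stayed with the same direction. Scaling by library totals moved the median of all entries from 0.00 to 0.11, and 112 entries were then higher and 58 lower. Without subconfluent replicate 2 there were 61 higher, and without confluent replicate 2 there were 64 higher and 54 lower.

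miR-210-3p showed the largest change of any tested entry. miR-210 is the miRNA that hypoxia-inducible factors switch on when oxygen is low, and it represses mitochondrial iron-sulfur assembly through ISCU. Its hairpin lies on the minus strand at chr11:568089-568198 (hg38), in an intron of the lncRNA MIR210HG. miR-210-3p was at 908, 860 and 924 CPM in subconfluent and at 4390, 3792 and 3971 CPM in confluent libraries. Every confluent library was more than 4 times any subconfluent one. The log2 fold change was 2.17 ± 0.09, or 4.51-fold (adjusted p = 4.13e-07). The passenger strand miR-210-5p moved alike from a low level, with 9.87, 11.9 and 11.6 CPM against 45.7, 45.0 and 42.2 CPM, and a log2 fold change of 1.98 ± 0.24 (adjusted p = 0.000310). Both strands of the hairpin therefore stood higher in all 3 confluent libraries. In subconfluent replicate 1 miR-210-5p had fewer than 10 counts. Its count filter was thus met only with the confluent group, which favours a rise of that strand.

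Named here are the 12 largest rises and 12 largest falls among called entries whose mean reached 100 CPM and whose groups did not overlap, a condition that 54 risers and 65 fallers met. After miR-210-3p came miR-769-3p (chr19:46018932-46019049, plus strand, an intron of CCDC61), at 49.4, 63.6 and 54.0 CPM against 180, 189 and 161 CPM, a log2 fold change of 1.66 ± 0.15 (adjusted p = 9.65e-05). miR-138-5p, a miRNA known from rodent neurons for restraining dendritic spine growth, is made from hairpins on chromosomes 3 and 16. It went from 101, 152.1 and 140 CPM to 339, 469 and 375.4 CPM, a log2 fold change of 1.59 ± 0.18 (adjusted p = 0.000213). Its confluent values were all more than 2 times the highest subconfluent value. miR-124-3p, the classical neuronal miRNA, started at 31.8, 65.8 and 80.5 CPM and stood at 112, 178 and 184 CPM in confluent libraries, with the widest spread of the 12 (1.41 ± 0.30, adjusted p = 0.00610).

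The other risers lay between 0.94 and 1.54 in log2 fold change. miR-328-3p (chr16:67202321-67202395, minus strand) was at 134, 125 and 165 CPM in subconfluent and 373, 404 and 355 CPM in confluent libraries (1.42 ± 0.13, adjusted p = 9.65e-05). miR-574-5p, whose sequence is a run of GU repeats, went from 163, 146 and 159 CPM to 435, 413 and 353 CPM (1.36 ± 0.12, adjusted p = 9.65e-05). Both miRNAs were thus at least 2 times higher in the lowest confluent than in the highest subconfluent library. miR-4454 changed by 1.54, miR-34c-5p by 1.38, miR-1301-3p, from an intron of the DNA methyltransferase gene DNMT3A, by 1.25, and miR-181d-5p by 1.04. miR-671-5p, known for directing AGO2 to slice the circular RNA CDR1as, changed by 0.99. The GC-rich miR-4787-3p changed by 0.94. A rise in a scarcer group of entries was seen for miR-193a-5p (1.87 ± 0.28, mean 83.3 CPM) and miR-193b-5p (1.75 ± 0.38, mean 12.6 CPM), while their far more abundant 3p partners were not called. miR-193b-5p had 4, 3 and 9 counts in subconfluent and 18, 23 and 25 in confluent libraries. It passed the count filter only through the confluent group, which favours a rise.

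The largest fall belonged to miR-140-3p, which comes from an intron of WWP2 at chr16:69933081-69933180 (plus strand) and whose hairpin is best known for its part in cartilage. It stood at 407, 432 and 367.3 CPM in subconfluent and 134, 170 and 164 CPM in confluent libraries, a log2 fold change of -1.36 ± 0.13 (adjusted p = 9.65e-05), or 2.57-fold lower. The lowest subconfluent library was still more than 2 times the highest confluent one. miR-590-3p, a miRNA from an intron of EIF4H that drives cardiomyocyte division in rodents, fell from 3050, 3273 and 3251 CPM to 1844, 1807 and 1658 CPM (-0.85 ± 0.08, adjusted p = 0.000130).

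Both strands of miR-545, a hairpin that RefSeq places on chromosome X, were among the 12 largest falls. miR-545-5p went from 1317, 1355 and 1269 CPM to 714, 773 and 709 CPM (-0.84 ± 0.09, adjusted p = 0.000141), and miR-545-3p fell by 0.95 ± 0.21 on the log2 scale (adjusted p = 0.00676). The remaining large falls were those of miR-378c (-0.99), miR-340-3p (-0.97), miR-576-5p (-0.90), miR-548o-3p (-0.88) and miR-1277-5p (-0.88), together with miR-30d-5p, miR-30a-5p and miR-30e-5p. A list of 11 strands of the miR-574, miR-328, miR-769, miR-589, miR-140, miR-590 and miR-545 hairpins had been singled out in earlier work on these data, so its directions are no independent evidence: 3 were called higher and 5 lower. Its member miR-589-5p, at 0.11 ± 0.12, was not called, and the other strand, miR-589-3p, which is not on the list, was called higher at 0.93 ± 0.10.

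**Figure D2:**
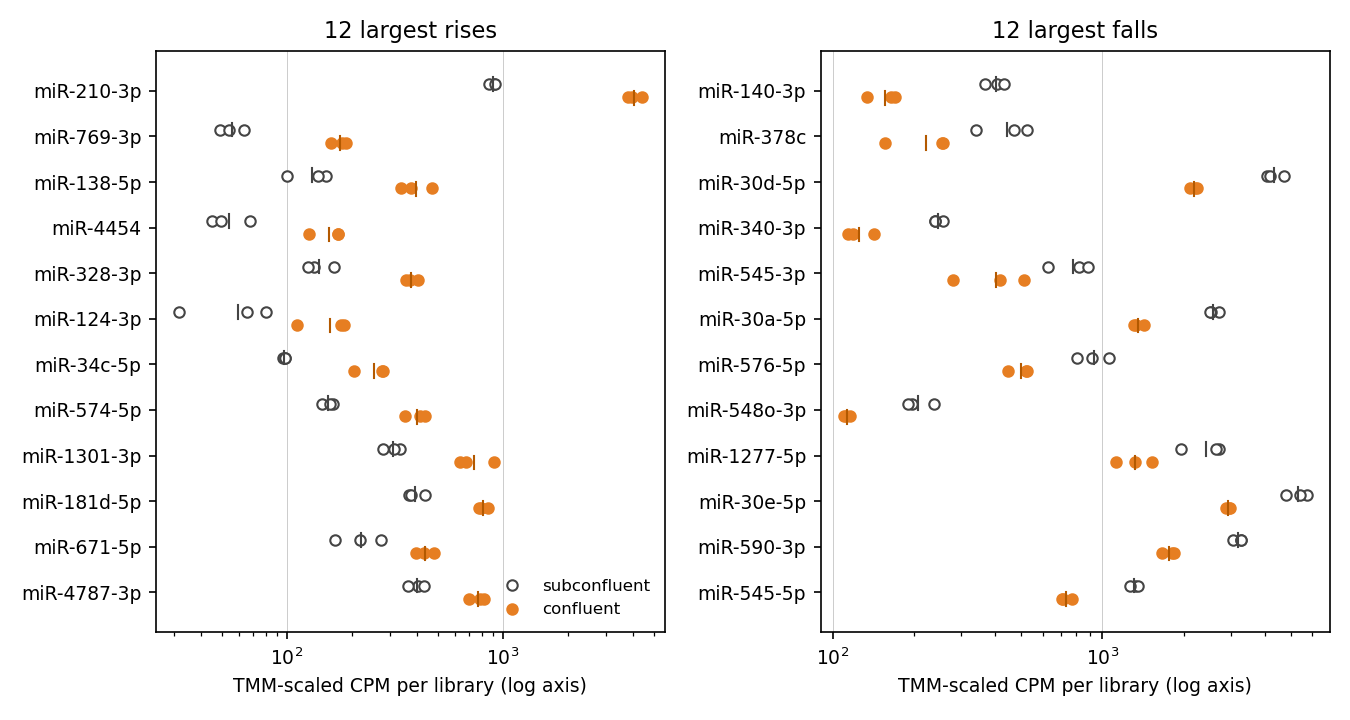
Level of the 12 largest rises (left) and 12 largest falls (right) in each library, in TMM-scaled CPM on log axes. Open circles are the 3 subconfluent and filled circles the 3 confluent libraries, and vertical ticks are group means. No pair of groups overlaps, which the rule for naming required, and miR-210-3p and miR-140-3p show the widest gaps on each side.

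Families that share a seed were read next. The miR-30 family, abundant guides with many targets in kidney epithelium, gave the most uniform fall: all 5 guides (miR-30a-5p to miR-30e-5p) were called lower, against 16.8% of all entries. miR-30d-5p was at 4723, 4086 and 4184 CPM in subconfluent and 2249, 2111 and 2195 CPM in confluent libraries (-0.99 ± 0.09, adjusted p = 9.65e-05). miR-30a-5p was at 2697, 2514 and 2505 CPM against 1333, 1314 and 1426 CPM (-0.92 ± 0.08, adjusted p = 9.65e-05). These 2 guides were 1.98-fold and 1.89-fold lower in confluent cells. miR-30e-5p changed by -0.86 ± 0.09 and miR-30c-5p, the most abundant after miR-30b-5p, by -0.67 ± 0.10. miR-30b-5p, at 7644 CPM the highest of the family on average, moved least, with -0.28 ± 0.09 (adjusted p = 0.0465), a call that 9 alternative settings ended. The summed share of the family was 2.88% ± 0.17 of the counts in subconfluent and 1.99% ± 0.11 in confluent libraries (SD, n = 3 each), and the groups did not overlap. The groups were apart for 21 of all 44 summed sets, namely lists, seed groups and the 10 leading entries. An exact permutation test gave p = 0.1 for the miR-30 sum, the smallest value it can reach (adjusted p = 0.21). How reads that would match more than 1 of the near-identical miR-30 sequences were counted is not given in the sources used here. Values of single members are therefore less certain than their sum.

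The 3p arms of the miR-30 hairpins did not move as a group. miR-30e-3p, at 4704, 4293 and 4083 CPM against 2918, 2904 and 2338 CPM, and miR-30a-3p were called lower (-0.68 ± 0.11 and -0.45 ± 0.11). miR-30d-3p was called higher, from 79.0, 72.3 and 78.3 CPM to 133, 113 and 106 CPM (0.61 ± 0.15, adjusted p = 0.0130), and so was the scarce miR-30b-3p, with overlapping groups. Thus the 2 abundant 3p arms were lower and 2 of the 4 scarce ones higher. miR-30b-3p had 3, 10 and 9 counts in subconfluent libraries, and its count filter was met through the confluent group.

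In the family of miR-34, which p53 induces, and miR-449, which accumulates in multiciliated cells, all 5 tested members were called higher. This compares with 18.4% of all entries, and their median log2 fold change was 1.21, the value of miR-34b-5p. Another member, miR-449b-5p, was too scarce to test, with 3, 1 and 3 counts in subconfluent and 2, 3 and 3 in confluent libraries. miR-34a-5p, by far the most abundant member, was at 2909, 2709 and 2742 CPM in subconfluent and 4076, 3589 and 3578 CPM in confluent libraries (0.43 ± 0.09, adjusted p = 0.00523). miR-34c-5p was at 96.5, 98.1 and 98.5 CPM against 205, 280 and 276 CPM (1.38 ± 0.15, adjusted p = 0.000193). The scarcer members moved further than miR-34a-5p in log2 terms. miR-449a, from an intron of CDC20B on chromosome 5, went from 41.7, 46.4 and 57.2 CPM to 111, 110 and 93.0 CPM (1.11 ± 0.18), and its neighbour miR-449c-5p from 26.3, 28.0 and 22.2 CPM to 68.6, 72.4 and 75.8 CPM (1.498 ± 0.19). miR-34b-5p, at a mean of 15.0 CPM, changed by 1.21 ± 0.33, and leaving out subconfluent replicate 2 or confluent replicate 3, or using DESeq2, ended its call. It had 11, 5 and 9 counts in subconfluent and 23, 22 and 25 in confluent libraries. The count filter was thus met through the confluent group. The family's share of all counts was 0.286% ± 0.0069 and 0.435% ± 0.0145 (SD, n = 3 each).

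All 4 members of the miR-181 family, miRNAs known for tuning T cell receptor signalling, were also called higher. miR-181d-5p was at 437, 366.7 and 374.8 CPM in subconfluent and 778, 790 and 858 CPM in confluent libraries (1.04 ± 0.10, adjusted p = 0.000130). miR-181b-5p changed by 0.49 ± 0.09 (adjusted p = 0.00248). miR-181a-5p, at 1788 CPM the most abundant, changed by 0.27 ± 0.08 (adjusted p = 0.0341) and miR-181c-5p by 0.36 ± 0.12 (adjusted p = 0.0464), calls that 9 and 10 alternative settings ended. miR-181c and miR-181d lie side by side in an intron of NANOS3 on chromosome 19, yet their guides differed in size of change, and the groups of neither overlapped.

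Several other abundant families had few or no calls. Without the block, no member was called among the 3 guides of miR-29, the 5 of the miR-130 family, the 3 of miR-148 and miR-152, the 3 of miR-99 and miR-100 and the 2 of miR-125. With it, 2 of the miR-148 and miR-152 guides and 1 of the miR-130 family were called lower and 1 of miR-29 higher. The summed share of the miR-29 guides was 1.52% ± 0.094 in subconfluent and 1.72% ± 0.055 in confluent libraries (SD, n = 3 each), and the groups did not overlap, nor did they for miR-99 and miR-100. Such a gap was common, seen in 21 of 44 summed sets, and the exact permutation test gave an adjusted p of 0.21 for both. Of the 9 guides of the let-7 family, which LIN28 holds back in early development, let-7c-5p (0.48 ± 0.10) and let-7e-5p (0.37 ± 0.12) were called higher, and the median was 0.01. Of the 7 miR-15/16 guides, which repress BCL2 and cyclins, miR-15b-5p (-0.36 ± 0.11) and miR-195-5p (-0.47 ± 0.14) were called lower, and the median was -0.16. miR-16-5p had a similar value, -0.29 ± 0.12, and was not called without the block.

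The paralog clusters of miR-17-92 held 7 tested guides. miR-106b-5p, which has the seed of miR-17-5p, was at 11099, 11047 and 11199 CPM in subconfluent and 9841, 7953 and 7861 CPM in confluent libraries, and was called lower (-0.38 ± 0.10, adjusted p = 0.0209). The scarce miR-363-3p was called higher (0.89 ± 0.29). The other 5, miR-93-5p among them, were not called without the block. Of the 9 tested passenger strands of these clusters, miR-106b-3p was called higher (0.44 ± 0.09), and 2 were called lower, among them miR-92a-1-5p (-0.89 ± 0.28) with overlapping groups.

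Other clusters split between their members. miR-24-3p, made from the same transcripts as miR-23 and miR-27, was at 1626, 1610 and 1642 CPM in subconfluent and 2184, 2363 and 2379 CPM in confluent libraries (0.51 ± 0.08, adjusted p = 0.00128). Its neighbours miR-23a-3p (-0.45 ± 0.11) and miR-27b-3p (-0.25 ± 0.08) were called lower, so entries of the same cluster were called in opposite directions. In the epithelial miR-200 family, which represses ZEB1 and ZEB2, miR-200c-3p was called higher (0.37 ± 0.12) and miR-141-3p, from the same transcript, lower (-0.73 ± 0.25). Among the miRNAs of the HOX clusters, miR-615-3p of the HOXC locus was at 617, 567 and 596 CPM against 943, 900 and 838 CPM (0.59 ± 0.09), in contrast to miR-10b-5p, which fell as given above.

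Smaller groups did change. Both miR-103a-3p and miR-107, encoded in introns of the PANK genes, were called higher, at 0.35 ± 0.10 and 0.30 ± 0.10, near the threshold (adjusted p = 0.0288 and 0.0459). miR-221-3p, a repressor of the cell cycle inhibitor p27, rose from 9139, 7837 and 7605 CPM to 15781, 13345 and 12357 CPM (0.75 ± 0.12, adjusted p = 0.00122). It was the most abundant entry after miR-103a-3p to be called higher. Its cluster partner miR-222-3p, with a different change, stood at -0.18 ± 0.09 and was not called. miR-222-5p was called lower (-1.13), with 91, 87 and 82 counts in subconfluent and 44, 45 and 54 in confluent libraries. The scarce miR-221-5p was called higher (1.06), and its count filter was met through the confluent group. miR-320a-3p, whose precursor is made without Drosha, was called higher at 0.68 ± 0.08 (adjusted p = 0.000320), the only one called of 6 tested Microprocessor-independent entries, a share near the 18.4% called higher among all entries.

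Several entries at Xq13 were called lower. Of 7 miRNAs from the miR-374, miR-545 and miR-421 hairpins, most of them within the lncRNA FTX, 5 were called lower, against 16.8% of all entries, and none higher, with a median of -0.56. With the replicate block, which called 56.1% of all entries, 6 were lower and 1 higher. miR-374a-5p, the most abundant of them, was at 17784, 13421 and 15021 CPM in subconfluent and 12188, 9624 and 10540 CPM in confluent libraries (-0.51 ± 0.13, adjusted p = 0.0137), a call lost without confluent replicate 2. miR-421, from an FTX exon beside miR-374b, did not follow, at 0.16 ± 0.09. In the neural list 3 of 8 members were called lower, namely miR-128-3p (-0.35), miR-132-3p (-0.50) and its scarce cluster partner miR-212-3p (-1.49), while miR-124-3p was the only riser. The summed share of that list was 1.74% ± 0.044 and 1.70% ± 0.015 (SD, n = 3 each), with overlapping groups. Of 30 entries of the 14q32 imprinted cluster 1 was abundant enough to test, and it was not called. None of the 9 pluripotency entries of the miR-302 and miR-371 clusters was.

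**Figure D3:**
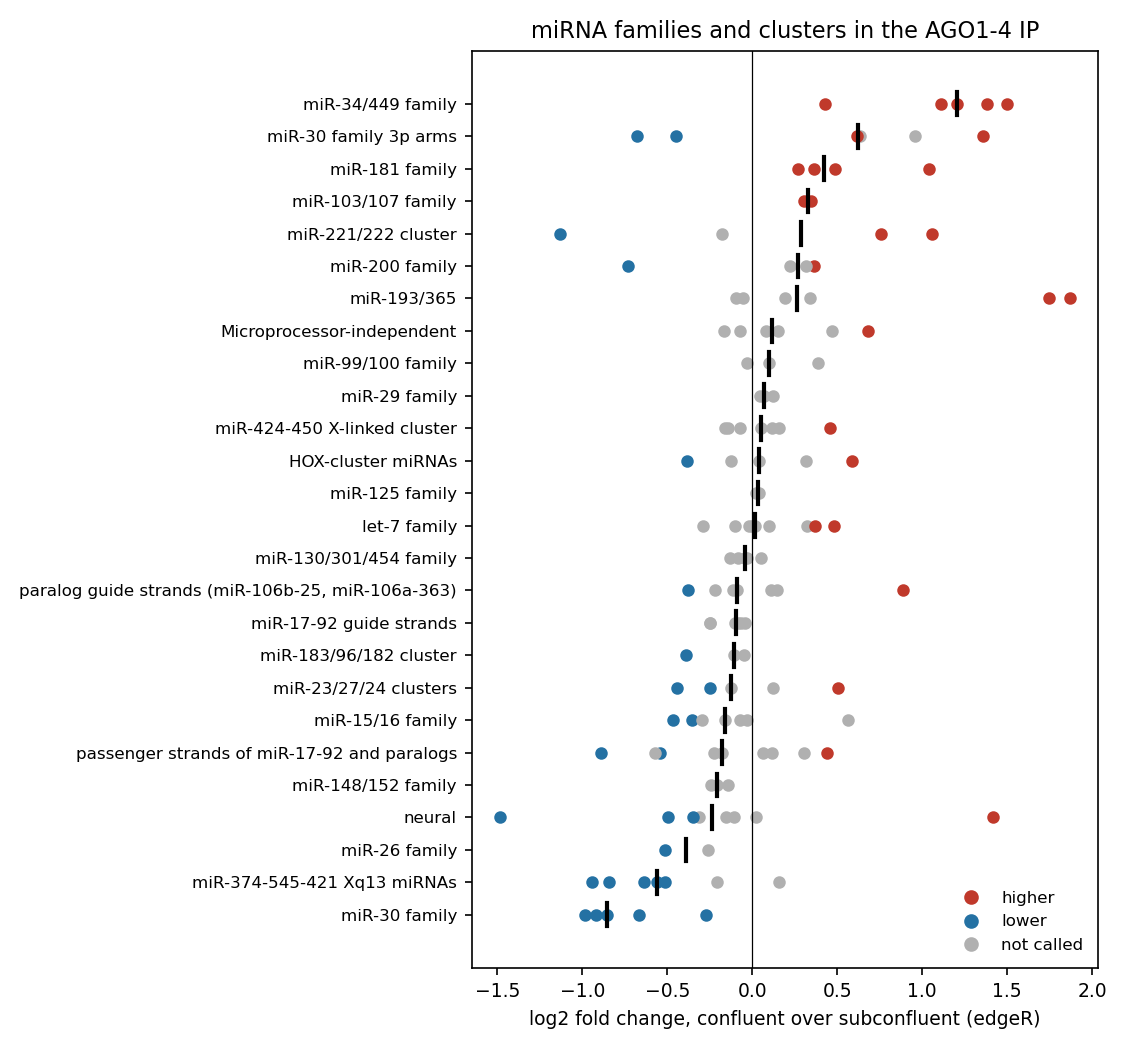
Log2 fold change, confluent over subconfluent, of every tested member of the listed families and clusters. Each point is 1 entry, coloured by its call, and black ticks are list medians. The miR-34, miR-449 and miR-181 members lie to the right of 0 and the miR-30 guides to the left, while the miR-17-92 guides sit close to 0.

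Both strands of 146 hairpins passed the count filter, which allowed a comparison within each hairpin that no scaling of libraries can move. The log2 ratio of 5p to 3p counts differed between the groups for 31 hairpins (21.2%; limma, adjusted p under 0.05), 19 towards the 5p strand (13.0%) and 12 towards the 3p strand (8.22%). In 9 of the 146 hairpins both strands were called higher in the test of single entries, in 9 both were lower, and in 4 they were called in opposite directions.

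miR-140 and miR-30d made the clearest pair of opposite shifts. In miR-140 the 5p to 3p log2 ratio was 2.36, 2.06 and 2.62 in subconfluent and 4.10, 3.82 and 4.25 in confluent libraries, a difference of 1.71 ± 0.18 (limma, adjusted p = 0.000184). The 3p strand fell, as given above, and miR-140-5p, at 2088, 1805 and 2256 CPM against 2311, 2405 and 3155 CPM, was not called without the block (0.36 ± 0.13, adjusted p = 0.0664) and was called higher with it (adjusted p = 4.15e-10). In miR-30d the ratio went from 5.88, 5.801 and 5.72 to 4.07, 4.21 and 4.36, a difference of -1.59 ± 0.17 (limma, adjusted p = 0.000184), since the guide fell and the 3p strand rose.

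miR-574 shifted towards its 5p strand by 1.19 ± 0.12, as miR-574-3p, at 0.15, was not called. miR-34a shifted towards its guide by 1.11 ± 0.16, with miR-34a-5p higher and miR-34a-3p lower (-0.68). In miR-769 both strands were called higher, and miR-769-3p by more, so that the ratio moved by -0.95 ± 0.16. miR-193a moved by 1.59 ± 0.25, and miR-106b, a paralog of the miR-17-92 cluster, by -0.83 ± 0.15, with its guide lower and its passenger higher. Other large shifts were those of miR-3679 by 2.28 ± 0.49, miR-1285 by -1.64 ± 0.35 and miR-296 by -1.62 ± 0.25. Hairpins with 1 abundant strand shifted too, miR-193b by 1.504 ± 0.41, miR-125a by -1.41 ± 0.39 and let-7a by 1.30 ± 0.36, where the scarcer strand had a mean of 12.6, 18.3 and 23.9 CPM. The scarcer strand of miR-193b passed the count filter only through the confluent group, as given above. The same held for miR-125a-3p, called higher at 1.53, and for miR-3679-5p, called higher at 1.22. Such a filter favours a shift towards the strand that rose. Both strands of miR-3679 had lower means than miR-125a-3p, and its 5p strand a lower mean than miR-193b-5p. Apart from miR-3679, miR-140, miR-1285 and miR-296, which had the largest shifts, the hairpins of this paragraph and miR-30d were chosen after their values were seen. Leaving out confluent replicate 3 ended the calls of miR-3679 and miR-1285, and for miR-1285 confluent replicate 2 did so too. With the replicate block 66 hairpins were called. Without confluent replicate 2 there were 13, without confluent replicate 3 there were 15 and without subconfluent replicate 1 there were 18.

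**Figure D4:**
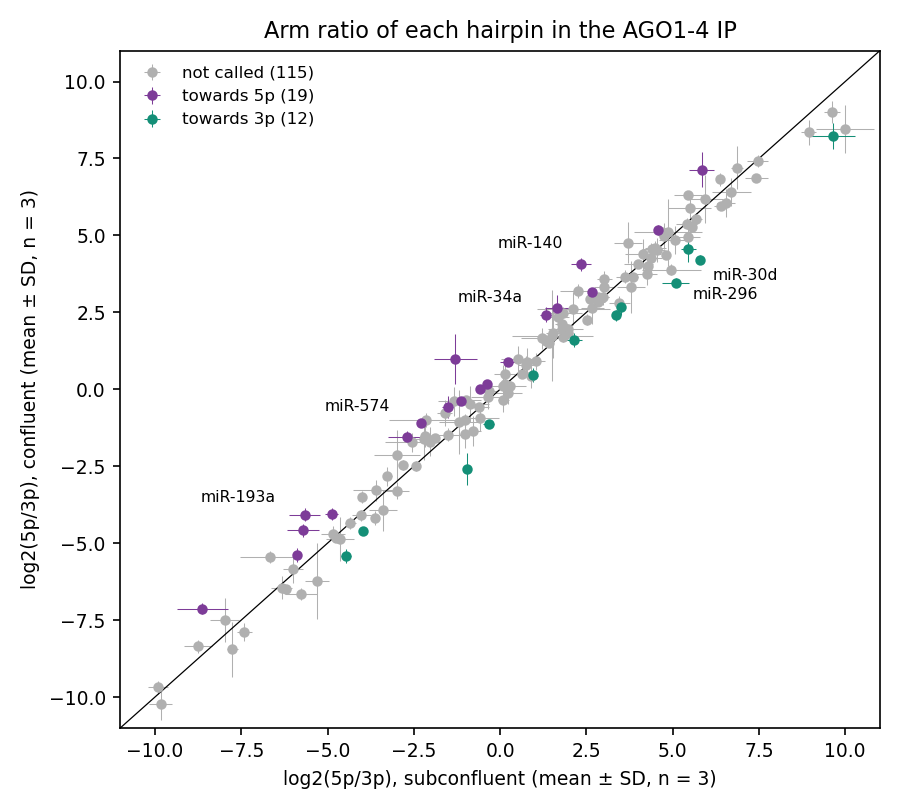
Log2 ratio of 5p to 3p counts for 146 hairpins, as the mean of 3 subconfluent (horizontal) and 3 confluent (vertical) libraries with SD as error bars. Points above the diagonal shifted towards the 5p strand at confluence (19 called) and points below it towards the 3p strand (12 called). Most hairpins lie near the diagonal over the whole range of ratios.

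The change with confluency also went with base composition. Mature sequences were found for 468 of the 537 entries (87.2%). Across these, the log2 fold change rose with GC content (Pearson's r = 0.34, Spearman's rho = 0.33) and with length (r = 0.25, rho = 0.26), where entries share libraries and are not independent replicates. Of the 127 entries of lowest GC content, 12.5 to 39.1%, 5 were called higher and 27 lower. Of the 116 of highest GC content, 56.0 to 83.3%, 46 were higher and 9 lower. Of entries 21 bases long 5 of 72 were higher and 18 lower, and of those 23 bases long 30 of 87 were higher and 5 lower. The median GC content was 62.3% for the 10 named risers with a sequence, 40.9% for the 11 named fallers and 47.6% for all 468.

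**Figure D5:**
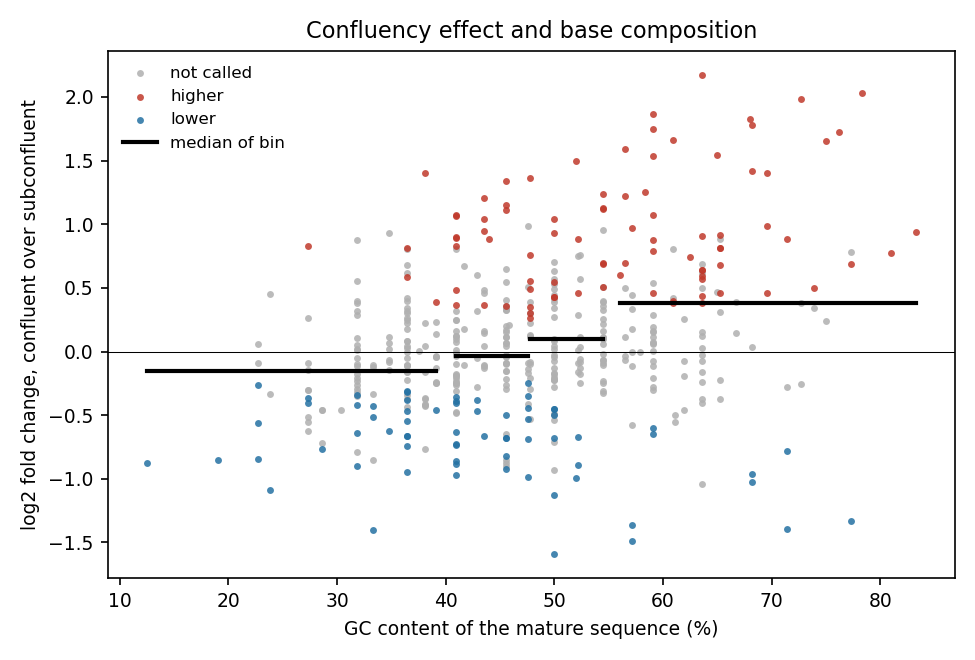
Log2 fold change, confluent over subconfluent, against the GC content of the mature sequence (%) for 468 entries, coloured by call. Black bars are medians of 4 bins by GC content, which climb from -0.16 in the lowest to 0.38 in the highest.

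When a smooth GC trend was taken out of each library, 60 entries were called higher (12.8%) and 65 lower (13.9%) of 468, and 68.6% of the 156 earlier calls that could be tested stayed with the same direction. miR-210-3p then changed by 1.84 and miR-140-3p by -1.59. The miR-30 guides with a sequence kept their calls (3 of 3 lower, median -0.83) and so did the miR-34 and miR-449 members (4 of 4 higher, median 1.14), whereas 2 of the 4 miR-181 guides did. Of the miRNAs at the extremes of GC content, miR-4787-3p (83.3% GC) went from 0.94 to 0.19 and miR-1277-5p (12.5% GC) from -0.88 to -0.29, and neither call was left. miR-590-3p (19.0% GC) was reduced from -0.85 to -0.40 and stayed called, and miR-545-5p (22.7% GC) from -0.84 to -0.49. Among the calls lost were those of miR-103a-3p, miR-107 and miR-374a-3p. Of the Xq13 miRNAs with a sequence, 3 of 6 were called lower after the adjustment, with a median of -0.34. The higher calls of miR-615-3p, miR-200c-3p and miR-106b-3p, given above beside members called lower, were lost too. A composition trend of this kind was not separated from pool or confluency, as each pool holds 1 group.

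The IP was set beside the cytoplasmic libraries of the same line, which hold 23909 to 48404 counts each and were amplified together in 1 pool, so the limit on pool and confluency enters here through the IP. Of the entries detected in both, 189 were tested for a difference between the 2 confluency effects, and the effect in the IP was above that in the cytoplasm for 30 (15.9%) and below it for 38 (20.1%), or 36.0% in all. Within this fit 24 entries were higher (12.7%) and 14 lower (7.41%) in the confluent cytoplasm. Across the 189 the effects had a Pearson's r of -0.19, given as a description. A limit applies to all of these values: a summary table of the study gives the name subconfluent cytoplasm to libraries deposited as confluent nucleus. Values here follow the deposited names. The fit under the other naming also left out replicate 3 of the libraries deposited as confluent nucleus, so the fits differ in more than names. In that fit 41 of 155 entries were above and 15 below. The effects below numbered 24 without IP subconfluent replicate 1, 25 without IP confluent replicate 3 and 22 without cytoplasmic subconfluent replicate 2.

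miR-210-3p was higher at confluence in both materials, by 1.22 in the cytoplasm and 0.96 ± 0.26 more than that in the IP (adjusted p = 0.0151). Under the other naming its cytoplasmic change was -0.26. The effects of miR-769-3p had opposite signs: its cytoplasmic level was 1830, 1829 and 2148 CPM in subconfluent and 400, 294 and 255 CPM in confluent libraries, a log2 fold change of -2.58 against 1.66 in the IP (difference 4.24 ± 0.27, adjusted p = 1.78e-08). It had 6 to 103 counts in these cytoplasmic libraries. All 4 miR-30 guides that could be tested had negative differences, and guides were not tested against each other. miR-30c-5p changed by 0.23 in the cytoplasm, with a difference of -0.89 ± 0.24 (adjusted p = 0.0148), a call lost under the other naming (adjusted p = 0.421). The differences of miR-30e-5p (-0.80 ± 0.40), miR-30b-5p (-0.59 ± 0.34) and miR-30d-5p (-0.25 ± 0.23) were not called. For miR-34a-5p and miR-181d-5p the differences, 0.05 ± 0.33 and 0.14 ± 0.35, were within their errors.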

How the data were processed

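Small RNA from T6B precipitates of AGO1-4 was sequenced in 3 subconfluent and 3 confluent HEK293 libraries. Per the labels and methods, adapters were removed by the authors (cutadapt), and reads were mapped against miRNAs (Bowtie2) and counted (bedtools), on build hg38. Versions of the mapper and counter are not given in the sources used here. The deposited values are raw counts per mature entry, without normalization or molecular identifiers. Standard errors and p-values rest on the spread between the 3 libraries of a group, which the fit includes beside counting error. The quasi-likelihood test of edgeR 4.0.16 (R 4.3.3) was run after TMM scaling on the entries with at least 10 counts in 3 libraries, and p-values were adjusted over all of them by the Benjamini-Hochberg method (threshold 0.05). Arm ratios, log2((5p + 1)/(3p + 1)), were tested with limma 3.58.1. Groups came from the sample titles. Libraries of 1 number have a 3′ adapter in common and deviated together (r = 0.58, 0.34 and 0.39), so the number pairs them, and a fit with it as a block was run. That fit's prior degrees of freedom were infinite, and its biological coefficient of variation was 4.06% against 12.7% without the block. Alternatives were DESeq2 1.42.0, library totals, RLE factors, TMM without the 10 leading entries, other filters, GC adjustment and leaving out each library. The GC trend was a loess curve per library over entries with a RefSeq sequence. Hairpin positions and host genes are from GENCODE 44. On simulated counts edgeR recovered 86.8% of 2-fold and 99.8% of 4-fold changes of IP entries (525 tested), and limma 80.4% and 98.2% for arm ratios (141 tested). The simulated libraries were independent, without an effect shared by libraries of 1 number. No change below 2-fold was simulated, so recovery of the smaller changes, which most calls were, was not tested. The families, lists and naming rule (up to 12 rises and 12 falls past the threshold with a mean of 100 CPM and no overlap, the 10 most abundant entries, the 4 largest arm shifts, and list members as examples) were chosen with earlier results of these data known. The HEK293 cytoplasmic comparison used 6 further libraries with TMM factors taken within each material.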

Additional observations from a re-analysis of the deposited data

Results flagged for a closer look

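For 13 of the 22 named miRNAs that could be tested in both materials, the change with confluency in the IP differed from that in the HEK293 cytoplasm (edgeR interaction test, adjusted p under 0.05 over 189 entries). Of all 189, 36.0% were called, and many of the named entries were chosen for a large change in the IP, which favours a difference of this kind. The IP effect was above the cytoplasmic one for miR-210-3p by 0.96, miR-769-3p by 4.24, miR-138-5p by 2.22, miR-4454 by 1.89, miR-574-5p by 1.74, miR-1301-3p by 1.35 and miR-671-5p by 1.40, all on the log2 scale. The difference, IP minus cytoplasm, was -1.96 for miR-378c, -0.85 for miR-19a-3p, -1.06 for miR-20a-5p, -0.59 for miR-92a-3p, -0.58 for miR-16-5p and -0.85 for miR-10b-5p. For 6 of the 13 at least 1 of 14 alternatives ended the call, most often for miR-92a-3p (past the threshold in 7 of 14) and miR-16-5p (5 of 14).

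Under the other naming of the subconfluent cytoplasmic libraries described in the report, a fit that also left out a library, 8 of the 13 could be tested. Of these, 3 were past the threshold, and 4 kept their sign. miR-210-3p was then 2.44 above (adjusted p = 4.88e-05) and miR-1301-3p 2.48 above. miR-92a-3p turned to 0.83 above (adjusted p = 0.0111), miR-20a-5p to 0.52 and miR-19a-3p to 0.34, the latter 2 not called. Which naming holds was not tested.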

How the results depend on the processing

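No named IP change or arm ratio changed direction under the alternatives run: of 721 values for 49 named entries and arm ratios, 660 kept their side of the threshold, 39 lost and 22 gained a call. Arm ratios were not rerun with GC adjustment, so their dependence on base composition was not tested. The calls most often lost were those of miR-30b-5p, miR-181a-5p and miR-181c-5p. Total calls under each alternative include entries not called before. Against 99 entries higher, there were 60 after GC adjustment and 61 to 93 when each library was left out in turn, the fewest without subconfluent replicate 2 (61) or confluent replicate 2 (64). Against 90 lower, there were 58 with library totals, 156 with the replicate block and 54 to 92 with a library left out, the fewest without confluent replicate 2 (54). DESeq2 gave 69 and 82. Against 31 hairpins with a shifted arm ratio, the replicate block gave 66, a filter of 100 counts 20, and leaving out a library 13 to 31, with 18 without subconfluent replicate 1, 13 without confluent replicate 2 and 15 without confluent replicate 3. Effects in the IP below the cytoplasm numbered 15 under the other naming of the cytoplasmic libraries and 22 to 50 without a library (24 without IP subconfluent replicate 1, 25 without IP confluent replicate 3, 22 without cytoplasmic subconfluent replicate 2), and those above it 20 to 32.

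The log2 ratios of summed shares, confluent over subconfluent, were -0.02 for the 10 leading entries, -0.01 for miR-17-92 guides, -0.53 for the miR-30, 0.61 for the miR-34 and miR-449 and 0.57 for the miR-181 family. On TMM-scaled CPM they were -0.13, -0.11, -0.63, 0.50 and 0.46. Without a library they ran from -0.05 to 0.01, -0.04 to 0.03, -0.57 to -0.49, 0.58 to 0.63 and 0.54 to 0.61. The replicate block ended no call and gained 10 among the named entries. After GC adjustment 3 main calls changed sign, none of them named, and adding the block to it gave 109 higher and 119 lower. The cytoplasmic libraries, with at most 48404 counts, limit the comparison between materials.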
